A study of Mus musculus with 8 samples.

Results

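The genes described here are 10 brush border hydrolases, the enzymes anchored in the apical membrane of the small intestinal enterocyte that finish the digestion of sugars, peptides and phosphate esters. They were taken as the probes whose gene name on the array was one of Sis, Lct, Treh, Mgam, Anpep, Dpp4, Enpep, Mep1a, Mep1b and Alpi, or an older name of one of them. Of 41174 probes for 27566 gene names, 15 probes belonged to these genes. Sis was found under its older clone name 2010204N08Rik, and the array's probe called Si, the silver gene, was not used. Lct, Treh, Anpep, Enpep, Mep1a and Sis had 1 probe each, Mgam, Alpi and Mep1b had 2, and Dpp4 had 3. The neighbouring alkaline phosphatase gene Akp3 has its own probe and was kept apart.

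RNA was compared on 8 two-colour Agilent arrays, each setting a tested RNA against another RNA. In the deletion comparison, the small intestinal epithelium of mice with both copies of Ascl2 floxed (Ah-Cre/Ascl2floxed/floxed) was set against that of mice with 1 floxed and 1 wild-type copy (Ah-Cre/Ascl2floxed/wt), at 3 and at 5 days after induction. Ah-Cre is a Cre recombinase under an inducible Cyp1a1 promoter, so the control mice carried the same Cre. Ascl2 is a transcription factor gene of the crypt base. In the sort comparison, cells with high GFP (GFPhi) were set against cells with low GFP (GFPlo) from the intestine of Lgr5-EGFP-ires-CreERT2 mice, in which GFP is made from the locus of the crypt stem cell marker Lgr5. There were 2 sorts, each of 3 pooled mice, and the sources used here do not say how many animals lay behind each deletion RNA, or the age of any mice. Each pair of RNAs was hybridised on 2 arrays with the dyes swapped, so the 8 arrays hold 4 RNA pairs and n = 2 pairs per comparison, with 1 pair per day of the deletion. In bulk RNA such as this, fewer cells of a type and less RNA per cell cannot be told apart.

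Brush border hydrolases are made as enterocytes leave the crypt and climb the villus, and their transcripts are a common measure of how far absorptive cells have matured. Sis (sucrase-isomaltase), Lct (lactase), Treh (trehalase) and Mgam (maltase-glucoamylase) are disaccharidases. Anpep (aminopeptidase N), Dpp4 (dipeptidyl peptidase 4) and Enpep (aminopeptidase A) trim peptides from their amino end, Mep1a and Mep1b encode the subunits of the metalloendopeptidase meprin, and Alpi is intestinal alkaline phosphatase. Factors of the HNF1, HNF4, Cdx and GATA families are known to act on promoters of several such genes.

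The 250 bases upstream of the start of 4 of these genes are shown, since their ratios went the same way or apart in the values that follow. Sis and Lct are the classical enterocyte disaccharidases, Mep1a had the widest difference between days, and Treh was not higher on day 3. The sequences are RefSeq's on build GRCm38.p6, read 5′ to 3′ on the gene's strand, at chr3:72967864-72968113 (- strand) for Sis, chr1:128328319-128328568 (- strand) for Lct, chr17:43502774-43503023 (- strand) for Mep1a and chr9:44672983-44673232 (+ strand) for Treh. Capitals mark matches, on either strand, to 4 motifs that do not overlap in these windows. The motif of the HNF1 family was searched as GTTAAT. That of the Cdx family was searched as TTTATG. That of the factors of the GATA family was searched as AGATAA. That of the HNF4 family was searched as CAAAGTCCA.
Sis: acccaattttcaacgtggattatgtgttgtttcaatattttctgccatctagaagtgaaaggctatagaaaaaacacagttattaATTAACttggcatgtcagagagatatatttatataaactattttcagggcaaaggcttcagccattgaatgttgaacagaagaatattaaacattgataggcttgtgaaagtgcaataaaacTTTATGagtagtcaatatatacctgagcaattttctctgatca
Lct: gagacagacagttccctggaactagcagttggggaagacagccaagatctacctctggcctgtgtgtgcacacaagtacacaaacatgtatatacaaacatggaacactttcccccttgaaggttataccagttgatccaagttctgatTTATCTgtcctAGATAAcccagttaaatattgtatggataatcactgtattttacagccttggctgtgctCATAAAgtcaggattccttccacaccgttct
Mep1a: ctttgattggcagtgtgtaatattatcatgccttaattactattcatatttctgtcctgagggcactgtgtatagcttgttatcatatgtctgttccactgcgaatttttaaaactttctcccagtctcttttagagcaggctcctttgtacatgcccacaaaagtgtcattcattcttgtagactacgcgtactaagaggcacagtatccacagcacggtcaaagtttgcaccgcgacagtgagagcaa
Treh: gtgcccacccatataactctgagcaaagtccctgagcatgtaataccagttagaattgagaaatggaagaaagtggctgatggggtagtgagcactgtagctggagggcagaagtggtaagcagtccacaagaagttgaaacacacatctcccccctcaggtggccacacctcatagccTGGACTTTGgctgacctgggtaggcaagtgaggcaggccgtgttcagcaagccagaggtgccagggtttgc

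Of the 10 genes, 9 had an upstream sequence in the table, and Mep1b is named only. GTTAAT was found in 1 of the 9, Sis, 165 bases before the start, against 6.43% of 32851 upstream sequences of the same length. TTTATG was found in 2 of the 9, in Sis 43 and in Lct 31 bases before the start, against 10.8% of all. AGATAA was found in 3 of the 9, Lct, Mgam and Dpp4, against 9.99% of all, with a pair of matches in Lct at 101 and 90 bases before the start. CAAAGTCCA was found in 2 of the 9, in Treh 71 and in Alpi 19 bases before the start, against 0.384% of all. The Mep1a sequence held none of the 4 motifs. These matches describe letters in the window alone.

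The label checks came first. Ascl2 was lower in the deleted RNA on all 4 arrays, with log2 ratios from -1.36 to -1.29 (2.51-fold lower on day 3 and 2.49-fold lower on day 5), although whether its probe lies in the deleted part was not analysed here. Lgr5 was higher in GFPhi cells on all 4 sort arrays, with log2 ratios from 1.48 to 2.21. Of the spots other than controls, 55.0% to 66.9% were well above background in a channel of the deletion arrays and 35.5% to 44.6% in one of the sort arrays. All 10 hydrolases were well above background in both RNAs on all 4 deletion arrays, so no hydrolase entered that comparison through 1 group alone. None of their spots was saturated. The test that follows fits both comparisons together, so the difference between the days adds to the spread used for both. In limma's test across all genes, adjusted by Benjamini-Hochberg, no gene passed 0.05 in either comparison (0 of 10434 genes, 0%, in the sorts, with 527 at an unadjusted p under 0.05, and 0 of 15886, 0%, in the deletion, with 1533), and no hydrolase had an unadjusted p under 0.05.

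On day 3 the hydrolases were mostly higher in the Ascl2-deleted epithelium, with 9 of 10 means above 0, beside 8009 of all 15886 genes tested. On day 5 7 of the 10 means were below 0, beside 8242 of the 15886, with Mgam, Mep1b and Enpep above it. That day 5 count was 6 with the scanner software's processed signals and 10 with median centring in place of loess. The median log2 ratio of the 10 was 0.89 on day 3 and -0.36 on day 5, beside 0.00 and -0.01 for all 15886 genes tested. Mep1a, Dpp4, Mgam, Enpep, Mep1b and Anpep were 1.5-fold or more higher on both day 3 arrays, which is 6 of 10 against 5.77% of all genes. Treh, Mep1a and Alpi were 1.5-fold or more lower on both day 5 arrays, 3 of 10 against 2.04% of all genes. The fold of 1.5 was chosen after these values were seen. With median centring in place of loess, 1 of 10 (Mep1a) met the rule on day 3 against 1.61% of all genes, and 0 of 10 on day 5 against 0.983%. The ratio of day 5 was below that of day 3 for all 10, and the share of all genes for which this held was not counted.

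**Figure D1:**
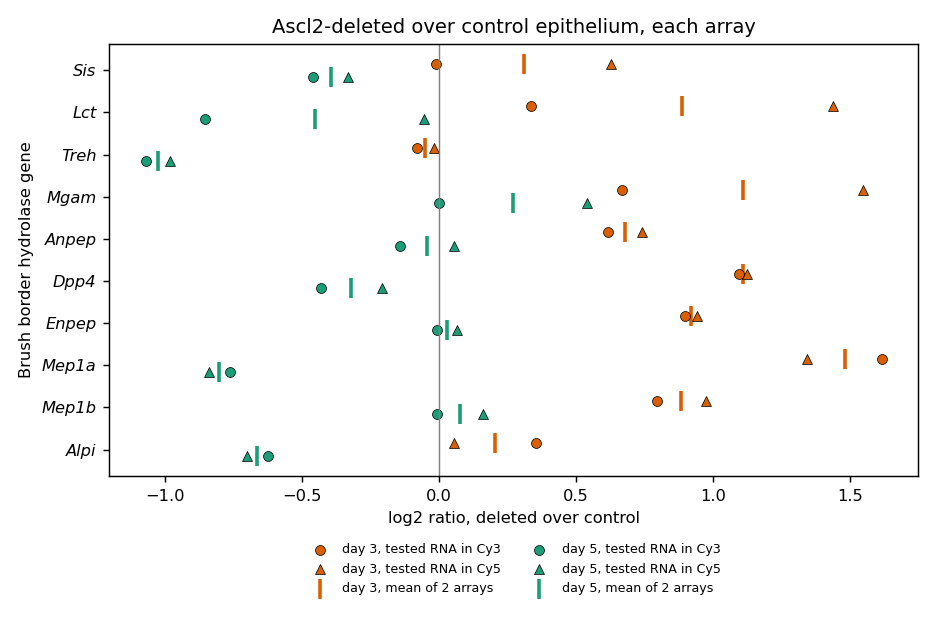
Log2 ratio of deleted over control epithelium (x axis) for each of the 10 hydrolases (y axis), with circles for arrays carrying the deleted RNA in Cy3, triangles for Cy5 and bars for the mean of the 2 arrays. Day 3 values (orange) lie to the right of day 5 values (green) for all 10 genes, with means from -0.05 to 1.48 on day 3 and from -1.03 to 0.27 on day 5.

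Among the disaccharidases the day 3 values ranged widely. Sis, probed at chr3:72976817-72976876 of build mm8, had log2 ratios of -0.01 and 0.63 on the day 3 arrays and of -0.33 and -0.46 on the day 5 arrays. Its day 3 arrays therefore disagreed on whether it was higher at all, while both day 5 arrays had it lower. Lct (chr1:130112358-130112417) had log2 ratios of 0.34 and 1.44 on day 3 and of -0.05 and -0.85 on day 5. Each day's arrays for Lct shared a sign but differed by 1.10 on day 3 and 0.80 on day 5, where the median gap between dye-swapped arrays was 0.15 and 0.13 over all tested genes.

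Mgam (chr6:40698495-40698554) had log2 ratios of 0.67 and 1.55 on day 3 and of 0.54 and 0.00 on day 5. Its second probe gave 1.21 and 0.92 on day 3 and 0.14 and 0.20 on day 5, so both probes placed Mgam about 2-fold higher on day 3 (2.16-fold by the brighter probe). The trehalase gene Treh (chr9:44437136-44437195) had log2 ratios of -0.08 and -0.02 on day 3 and of -0.98 and -1.07 on day 5. It was at the level of the control on day 3 and the lowest of the 10 on day 5, at 2.04-fold lower, and its arrays agreed within 0.09 on each day. The array with the deleted RNA in Cy5 gave the higher ratio on both days for 8 of the 10, all but Mep1a and Alpi, and the gap passed 0.5 on either day for Sis, Lct and Mgam alone.

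The aminopeptidases and Dpp4 were all higher on both day 3 arrays, and Dpp4 alone was lower on both day 5 arrays. Anpep (chr7:79695352-79695411) had log2 ratios of 0.62 and 0.74 on day 3 and of 0.05 and -0.14 on day 5. Enpep (chr3:129262014-129262073) had log2 ratios of 0.90 and 0.94 on day 3 and of 0.06 and -0.01 on day 5. Both genes were thus higher on each day 3 array (by 0.68 and 0.92 on average) and on opposite sides of 0 on the day 5 arrays.

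Dpp4, at chr2:62132844-62132903, had log2 ratios of 1.09 and 1.13 on day 3 and of -0.21 and -0.43 on day 5. Its other probes gave means of 1.04 and 0.77 on day 3 and of -0.36 and -0.25 on day 5, the same direction as the brightest. Dpp4 is also the T cell surface antigen CD26, and T cell markers were higher on day 3 too. All 8 had a mean above 0 on day 3, with a median of 0.94 (Gzma 1.80, Cd3g 1.28), and their median was -0.03 on day 5. The levels ran differently. The summed T cell signal was 7343 in the day 3 control and 22811 in the day 5 control, and 19610 and 22560 in the deleted RNAs. Dpp4's log2 level was 13.1 and 13.0 in these controls, and 14.2 and 12.7 in the deleted RNAs. The part of T cells in the Dpp4 values was not tested.

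The meprin subunits lay apart on day 5. Mep1a (chr17:42938832-42938891) had log2 ratios of 1.62 and 1.35 on day 3 and of -0.84 and -0.76 on day 5. It was the hydrolase with both the highest day 3 mean (2.79-fold higher) and, after Treh, the lowest day 5 mean (1.74-fold lower). Mep1b had log2 ratios of 0.80 and 0.97 on day 3 and of 0.16 and -0.01 on day 5, from its brighter probe, while its second probe was not well above background on any array. Mep1b was therefore higher on day 3 by 1.85-fold and at the level of the control on day 5.

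Alpi, at chr1:88929486-88929545, had log2 ratios of 0.35 and 0.05 on day 3 and of -0.70 and -0.63 on day 5. Its second probe gave 0.44 and 0.14 on day 3 and -0.34 and -0.43 on day 5. Both probes had it slightly above the control on day 3 and below it on day 5, by 1.58-fold with the brighter probe. Akp3 was not well above background in either RNA on any deletion array, so no fold is given for it. In which exon or untranslated region the probes lie was not analysed here.

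Lct, Dpp4, Mep1a and Alpi were above 0 on both day 3 arrays and below 0 on both day 5 arrays, 4 of 10 against 14.8% of all genes. Counting each day alone, 8 of 10 were above 0 on both day 3 arrays against 38.9% of all genes, and 6 of 10 were below 0 on both day 5 arrays against 34.9%. Limma's mean over both days did not pass for any of the 10, with adjusted p from 0.545 for Mep1b to 0.939 for Sis. The SD between the day means was 0.50 for Sis, 1.01 for Dpp4 and 1.61 for Mep1a (n = 2 RNA pairs), so an average over the days stands for neither day. Leaving out a day leaves 1 deletion pair, whose spread can only be that of the sorts, where Treh and Alpi were not measurable. Only effect sizes are therefore given for the hydrolases, with a median of 0.89 without day 5 and of -0.36 without day 3.

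The difference between the days was tested directly with limma on the genes measurable in both comparisons, which held 8 of the 10. With 1 RNA pair per day, the spread in this test comes from the 2 sorts alone, and its p values assume that the deletion pairs vary like the sorts. Several hydrolases were near the background in the sorts, and for Sis the SD between sorts was 0.0026. Sis, Lct and Mep1b entered this test through GFPlo alone, being dim on part of the GFPhi arrays. The SEs and p values that follow do not measure the spread between deletion RNAs, and the count is a description. Of the 8, 7 passed as lower on day 5 than on day 3, against 9.27% of 10310 genes, and 0 passed as higher, against 14.4%. Mep1a had the widest difference, -2.28 ± 0.14 on the log2 scale (SE, limma, adjusted p = 0.0041). Dpp4 followed at -1.43 ± 0.22 (SE, limma adjusted p = 0.0173) and Lct at -1.34 ± 0.20 (SE, limma adjusted p = 0.0166). Enpep (-0.89), Mep1b (-0.81), Anpep (-0.72) and Sis (-0.70) also passed, with limma adjusted p from 0.025 to 0.0343. Mgam, at -0.84 ± 0.43 (SE), did not pass (limma adjusted p = 0.211), and Treh (-0.98) and Alpi (-0.87) were not in this test. These calls depend on the signal used: with the scanner software's processed signals 0 of 8 passed, with median centring 3 (Dpp4, Lct and Mep1a) and with the series matrix 2 (Lct and Mep1a). The difference for Sis was -0.67, -0.93 and -0.64 under these settings, and that for Anpep -0.69, -0.94 and -0.67. The call of Sis was also lost with no background subtraction, where its difference was -0.72.

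In the sorted cells several hydrolases were near the background and the ratios of GFPhi over GFPlo were small. Treh and Alpi's brighter probe were not tested, being well above background on 1 of 4 GFPhi and 2 of 4 GFPlo arrays for Treh and on 2 of 4 in each for Alpi. Of the 8 tested, Sis, Lct, Enpep and Mep1b were lower in GFPhi cells on all 4 arrays, 4 of 8 against 17.3% of all genes, and Mep1a was higher on all 4, 1 of 8 against 16.5%. Sis, Lct and Mep1b entered this test through GFPlo alone, being well above background on 3, 2 and 3 of the 4 GFPhi arrays and on all 4 GFPlo arrays, so the count of lower genes supports nothing. None passed limma's test, in which the smallest unadjusted p of the 8 was that of Sis, 0.199. That p carries the difference between the days too: the SD of Sis was 0.0026 between sorts and 0.50 between days. With the sorts fitted alone, none of the 8 passed either, the smallest limma adjusted p being 0.15 for Sis. The mean log2 ratio of GFPhi over GFPlo ran from -0.31 for Lct and Enpep to 0.20 for Dpp4. These sizes depended on the signal used. With the scanner software's processed signals the mean was -1.08 for Sis, -1.20 for Lct and -1.16 for Enpep. For the other tested genes it ran there from -0.47 for Mep1b to 0.70 for Mep1a, and none passed limma's test.

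Sis had log2 ratios of -0.26 and -0.34 in sort 1 and of -0.40 and -0.19 in sort 2. Lct had -0.51 and -0.44 in sort 1 and -0.10 and -0.18 in sort 2. The values of both disaccharidases were below 0 on each array, read in part from GFPhi spots not well above background, and those of Lct lay farther from 0 in sort 1 than in sort 2. Enpep had -0.36 and -0.56 in sort 1 and -0.16 and -0.14 in sort 2, and Mep1b had -0.11 and -0.20 in sort 1 and -0.01 on both arrays of sort 2. Mep1a had 0.08 and 0.20 in sort 1 and 0.31 and 0.06 in sort 2, all above 0.

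The arrays of the remaining tested genes did not share a sign. Mgam had log2 ratios of 0.52 and 0.58 in sort 1 and of -0.21 and -0.51 in sort 2, so its direction turned between sorts on both dyes. Dpp4 had 0.33 and 0.46 in sort 1 and -0.10 and 0.11 in sort 2, and Anpep had -0.05 on both arrays of sort 1 and 0.04 and -0.37 in sort 2. Alpi's dimmer probe was well above background on all 4 GFPlo arrays and 1 GFPhi array, with ratios of -0.40 and -0.73 in sort 1 and of -0.04 and -0.02 in sort 2. Akp3 was well above background on 3 of 4 GFPlo arrays and no GFPhi array.

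**Figure D2:**
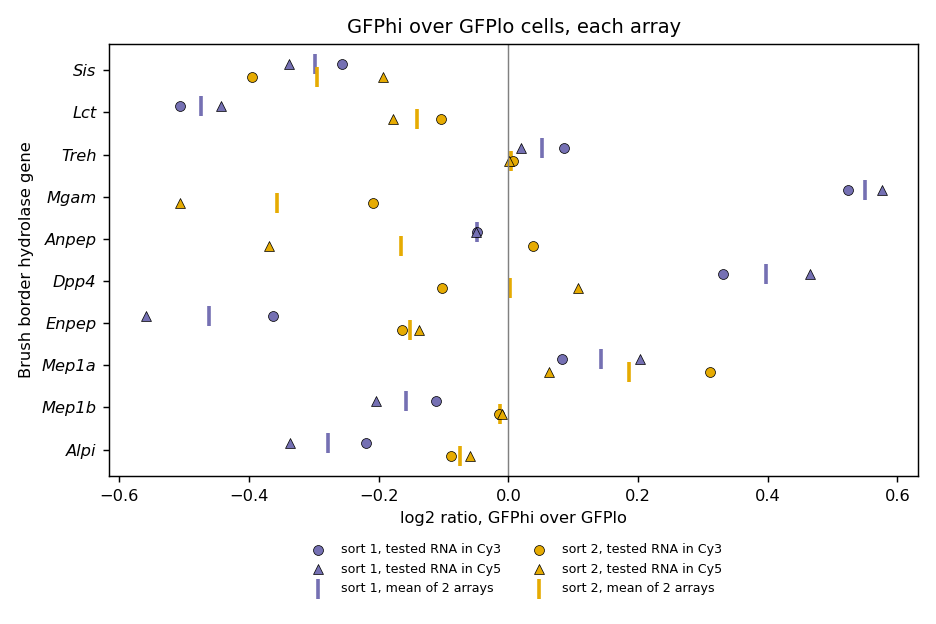
Log2 ratio of GFPhi over GFPlo cells (x axis) for each hydrolase (y axis), with circles for arrays carrying GFPhi RNA in Cy3, triangles for Cy5 and bars for the mean of the 2 arrays of a sort. All values lie between -0.56 and 0.58, and Mgam lies on opposite sides of 0 in sort 1 (purple) and sort 2 (yellow).

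The signal of all 10 hydrolases was higher in the control epithelium than in the sorted cells. These levels are log2 intensities scaled across arrays that were hybridised separately, and each gene is compared only with itself. For 9 of the 10, all 4 epithelial RNAs lay above all 4 sorted RNAs, against 31.6% of 16010 genes, the exception being Mep1a. Without scaling between arrays, and with the processed signals, this held for all 10, against 51.7% and 56.9% of all genes. The control epithelium exceeded GFPlo cells by 6.95 log2 units for Sis (123-fold), 6.80 for Lct, 5.63 for Mep1b, 5.24 for Enpep, 4.92 for Treh, 3.58 for Mgam, 3.21 for Anpep, 3.11 for both Dpp4 and Alpi and 1.53 for Mep1a (2.89-fold). The other scalings changed these sizes (3.74 to 8.32 with the processed signals, 4.31 to 9.04 without scaling between arrays) and not their direction, and the median over all genes was 0.06. GFPhi and GFPlo cells of a sort differed by less than the sorts did for Sis, Lct, Treh, Anpep, Dpp4 and Alpi.

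Sis had a level of 8.25 in GFPhi and 8.54 in GFPlo cells of sort 1, and of 9.99 and 10.29 in those of sort 2. In the epithelium its level was 16.17 in the control and 16.47 in the deleted RNA of day 3, and 16.56 and 16.17 in those of day 5. The sorted cells of sort 2 therefore had more Sis signal than those of sort 1 in both gates, and the epithelial RNAs lay within 0.40 of each other. Mep1a had levels of 9.65, 9.51, 9.65 and 9.46 in the sorted RNAs (GFPhi then GFPlo, sort 1 then sort 2). In the epithelium its level was 11.75 in the control and 13.23 in the deleted RNA of day 3, and 10.29 and 9.49 in those of day 5, so that, with this scaling and not with the other 2, the deleted RNA of day 5 fell within the range of the sorted cells.

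The control RNAs of the days also differed. From the day 3 control to the day 5 control the level of Mep1a differed by -1.46 log2 units, that of Treh by -1.13 and that of Alpi by -0.88, while Anpep (0.65), Mgam (0.62), Sis (0.40) and Lct (0.32) were higher and Enpep (0.20), Mep1b (0.06) and Dpp4 (-0.09) lay within 0.20 of it. Mep1a, Treh and Alpi are the hydrolases that were 1.5-fold or more below the control on day 5. With 1 control RNA per day, the day, the animals and the slide cannot be told apart.

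**Figure D3:**
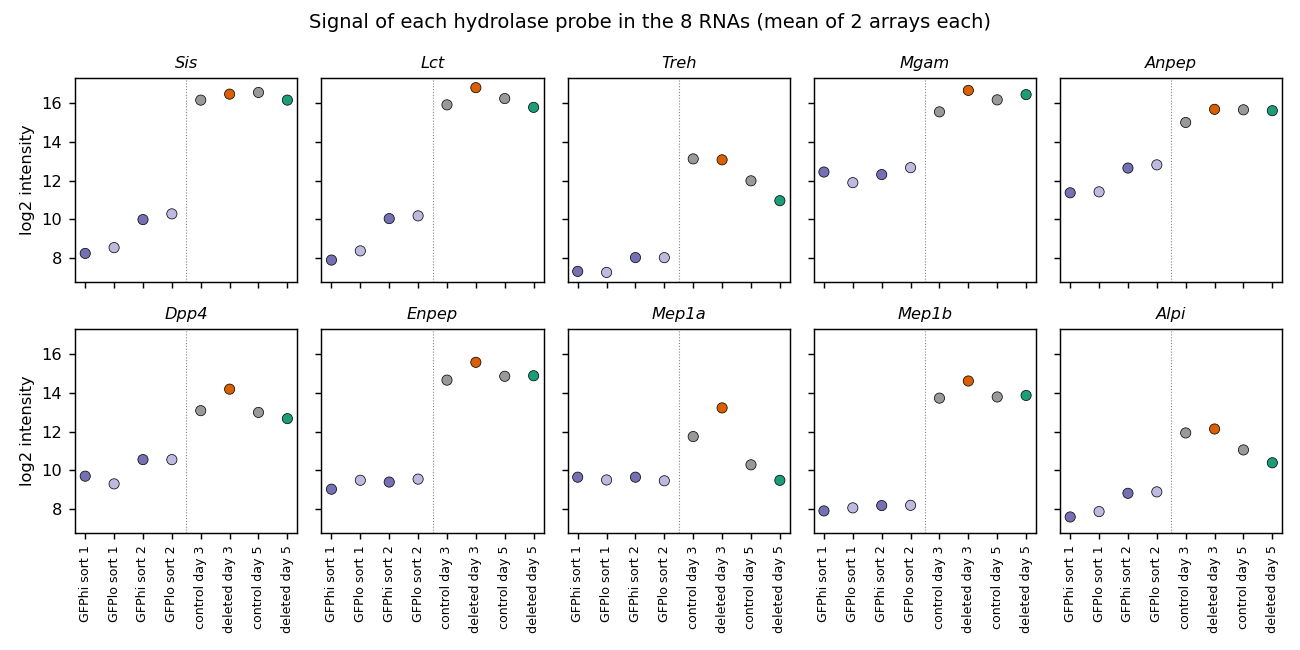
Log2 intensity (y axis) of the probe of each hydrolase in the 8 RNAs (x axis), each the mean of 2 arrays, with sorted cells left and epithelium right of the dotted line. The 4 epithelial RNAs lie above the 4 sorted RNAs for 9 genes, and for Mep1a the deleted RNA of day 5, at 9.49, lies among the sorted cells with the Aquantile scaling shown.

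Other brush border enzymes had a similar course in the deletion. Of 16 further brush border enzymes, 13 were tested, and 9 of these were 1.5-fold or more higher on both day 3 arrays and 3 were 1.5-fold or more lower on both day 5 arrays. Their medians were 1.19 on day 3 and -0.37 on day 5, and 10 of the 13 were above 0 on both day 3 arrays and below 0 on both day 5 arrays. Over all genes, 5.77% met the day 3 rule, 2.04% the day 5 rule and 14.8% had both signs. The phospholipase gene Plb1 had log2 ratios of 3.85 and 4.10 on day 3 and of 1.10 and 0.75 on day 5, and the neutral ceramidase gene Asah2 was below 0 on all 4 arrays (means -0.50 and -0.33). Xpnpep2, an aminopeptidase P, had means of 1.19 and -0.47. Chosen after their values were seen, Nt5e, the ecto-5′-nucleotidase CD73, had means of 2.81 and -0.38, and the pantetheinase Vnn1 had 2.10 and -0.44. None of the 13 passed limma's test over both days. In the test of the days 4 of the 5 measurable were lower on day 5, against 9.27% of all genes. For this list and those that follow, such counts were not compared under other signals.

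All 14 tested genes of microvillus structure had a mean above 0 on day 3, with a median of 0.61, and their median was 0.06 on day 5. Tmigd1, an adhesion protein of the microvillus, had log2 ratios of 4.07 and 4.20 on day 3 and of 1.52 and 1.48 on day 5, and the actin bundler gene Espn had means of 0.82 and 0.08. Of the 10 genes of carriers for sugars, peptides and amino acids, 6 were 1.5-fold or more higher on both day 3 arrays and 3 lower on both day 5 arrays, against 5.77% and 2.04% of all genes. Their medians were 0.67 and -0.46. The fructose carrier gene Slc2a5 had log2 ratios of 0.66 and 0.68 on day 3 and of -0.85 and -0.79 on day 5. The amino acid transporter genes Slc7a8 (means -0.63 and -0.96) and Slc6a20a (-0.37 and -1.47) were below 0 on all 4 deletion arrays. In limma's test of the days, 5 of the 7 measurable carriers were lower on day 5 than on day 3, against 9.27% of all genes.

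Among 14 transcription factors known to act on brush border genes, 4 were 1.5-fold or more higher on both day 3 arrays, against 5.77% of all genes. None was lower by that rule on day 5, against 2.04%, and the medians were 0.28 and 0.08. Of the 14, 4 had a mean below 0 on day 3. The lowest, Elf3, named after its values were seen, had log2 ratios of -1.29 and -1.05 on day 3 and a mean of 0.17 on day 5. Klf4 had log2 ratios of 1.75 and 1.73 on day 3 and means of 1.74 and 0.25 over the days, and Prdm1, a repressor of the suckling enterocyte programme, had means of 1.03 and 0.13. Hnf4a (0.37 and 0.31) and Hnf4g (0.61 and 0.20) were above 0 on all 4 arrays. None of the 14 passed limma's test over both days. In the test of the days 2 of 12 were lower on day 5, against 9.27% of all genes, and 1 (Elf3) was higher, against 14.4%. Of 12 enterocyte markers, 1 met the day 3 rule and 2 the day 5 rule, against 5.77% and 2.04% of all genes, with medians of 0.30 and -0.36. In the sorts 10 of the 12 were lower in GFPhi cells on all 4 arrays, against 17.3% of all genes, Fabp1 by -1.15 and Krt20 by -0.91. The hydrolases' values in the sorts were smaller than those of these 2 markers with normexp and loess, and this was not compared under the other treatments.

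Markers of other cells also differed between the deleted and control RNAs. On day 3, all 7 Paneth cell markers had a mean below 0 (median -1.25), as had all 10 proliferation genes (median -1.18; a list added after the values were seen), while 5 of 7 goblet cell markers had a mean above 0 (median 0.94, with Agr2 at -0.32 and Spink4 at -0.45) and the 5 tested markers of B and plasma cells had a median of 0.78. The summed intensity of the 8 T cell markers was 7343 in the control and 19610 in the deleted RNA of day 3, and 22811 and 22560 in those of day 5. That of the 7 Paneth cell markers was 393889 and 140367 on day 3, and 424580 and 423600 on day 5. Medians on day 5 were 0.26 for Paneth cell markers, -0.03 for proliferation genes and -0.22 for goblet cell markers.

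On day 5, markers of connective tissue stood apart: of 8 stroma and vessel markers 4 were tested, and Col1a1, Col1a2 and Col3a1, the fibrillar collagens, had means of 4.81, 4.68 and 5.11, against -0.92, -0.74 and -1.07 on day 3. The fourth, Acta2, had 0.18 on day 5, and Pdgfra, Des and the vessel genes Pecam1 and Cdh5 were not tested, since neither RNA had their probes well above background on all its arrays. The summed intensity of the 8 was 7761 in the control and 7535 in the deleted RNA of day 3, and 4388 and 17068 in those of day 5. Myeloid markers had a median of -0.16 on day 3 and 0.41 on day 5. Exocrine pancreas markers, of which 3 of 8 were tested, had medians of 0.27 and -0.04. The part of these other cells in the hydrolase values was not tested. Markers of the proximal small intestine had medians of -0.02 and 0.03 over 6 genes and those of the distal small intestine 1.07 and 0.08 over 4, and enteroendocrine markers had 0.07 and -0.24 over 8. The 4 distal genes were Slc51a, Slc51b, Pyy and Tff3, which is also in the goblet cell list. Fabp6, Slc10a2, Hoxb9 and Hoxa9 were too dim in both RNAs to be tested, so these medians do not tell the region.

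**Figure D4:**
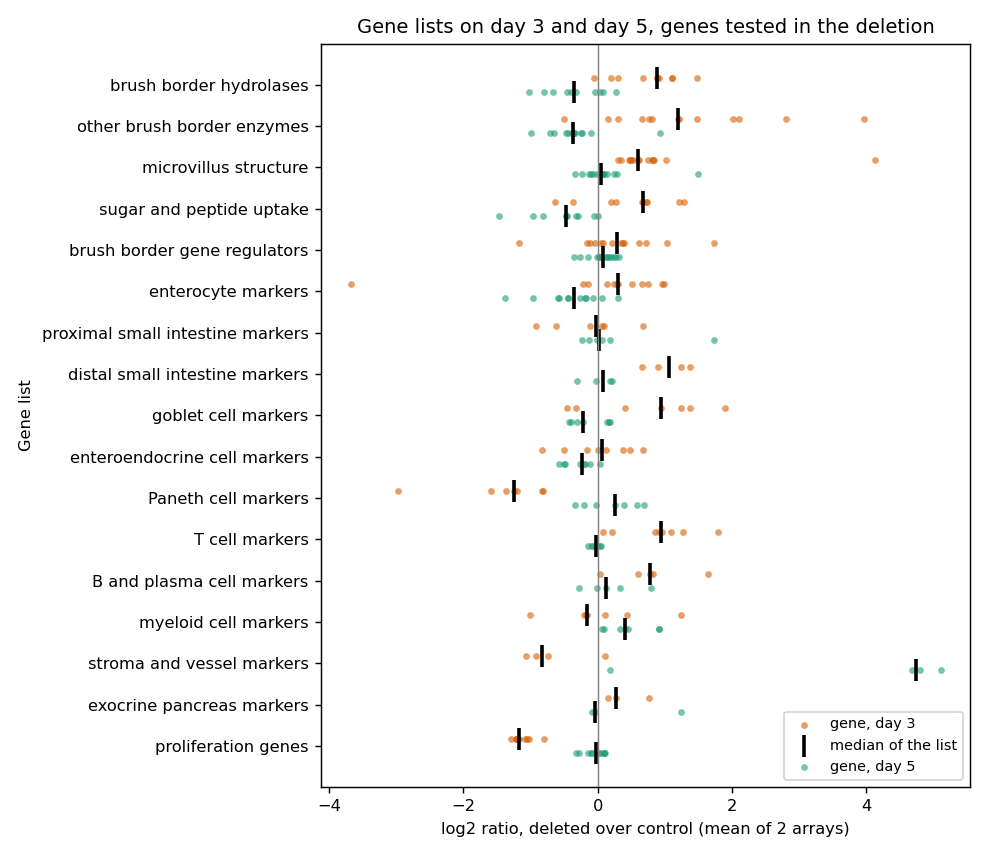
Log2 ratio of deleted over control epithelium (x axis, mean of 2 arrays) for the tested genes of each list (y axis) on day 3 (orange) and day 5 (green), with black bars for the list medians. The hydrolases have medians of 0.89 and -0.36, Paneth cell markers -1.25 and 0.26, and 3 collagens of the stroma list lie between 4.68 and 5.11 on day 5. The list labelled sugar and peptide uptake also holds amino acid carriers.

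Sis was also compared with all other genes by its pattern over the 8 array ratios, which share RNAs in pairs and dye effects, so the correlations are a description over 8 arrays. Of 10244 genes measurable in both comparisons, Guca2b, which encodes uroguanylin, was the most alike (Pearson's r 0.99). Its log2 ratios were -0.22 and 0.71 on day 3, -0.79 and -1.14 on day 5 and between -0.94 and -0.72 in the sorts. Next among named genes outside the hydrolases came Syne1 (0.98), Oxsr1 (0.97), Olfr279 (0.97), the prolidase gene Pepd (0.96) and Hcn4 (0.96). Of the hydrolases, Lct was closest to Sis by Pearson's r (0.94, rank 25). After it came Mep1b (0.86, rank 258), Dpp4 (0.81, rank 575), Anpep (0.79, rank 690), Enpep (0.78, rank 762), Mgam (0.75, rank 924) and Mep1a (0.73, rank 1051). This order depended on the measure: Spearman's rho was 0.79 for Dpp4, 0.69 for Lct and 0.55 for Mep1b.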

How the data were processed

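Trizol RNA was amplified and labelled, per the labels' protocols. Agilent Feature Extraction 9.5.3.1 gave each spot an intensity on a linear scale and placed the probes on mouse build mm8, per the file headers. The deposited series matrix gives log2 ratios that its makers had turned to tested over other RNA (r of at least 0.964 with the turned scanner ratios, medians from -0.02 to 0.03, and 21.8% to 49.4% of spots with a value). Whether the authors centred them is unknown. The deposited log10 ratio of Cy5 over Cy3 and the deposited processed intensity values served for checks and alternatives.

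From the scanner intensities, the background was corrected with normexp (offset 50), each array was normalised by loess with its 1639 control spots at weight 0, and spots with outlier marks were left out. Ratios were turned by the labelled dyes, the spots of a probe were averaged, and the brightest probe stood for its gene. Dye-swapped arrays were averaged to 4 RNA pairs and fitted together with limma 3.58.1 in R 4.3.3, with Benjamini-Hochberg adjustment and a two-sided threshold of 0.05. Genes entered a test if that probe exceeded the background flag on all 4 arrays of at least 1 RNA. Levels were scaled with Aquantile. Probe names came from the scanner files, updated through RefSeq's gene table (23483 of 41174 probes by accession, 6678 by current and 2887 by older symbol, with 8126 left as in the file). The named genes are Ascl2, Lgr5, all members, up to 4 genes per further list by smallest p with 1 sign on all 4 arrays, and the 6 genes most like Sis, apart from those said to be chosen otherwise. Accessions and predicted genes were not named. The members and lists were chosen with earlier results of these data known. The fit was tested on simulated data. Each RNA pair had its own slide, so slide and pair cannot be told apart. P values of the joint fit rest on the spread between the sorts and between the days, and those of the day difference on the sorts alone. With 1 RNA pair per day, none measures the spread between replicate deletion RNAs, and the number of RNA pairs limits the precision.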

Additional observations from a re-analysis of the deposited data

Results flagged for a closer look

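Lct, Dpp4, Mep1a and Alpi were above the control on both day 3 arrays and below it on both day 5 arrays, with differences of day 5 minus day 3 of -1.34, -1.43, -2.28 and -0.87 on the log2 scale. For Alpi the difference was not tested, since its brighter probe was not measurable in the sorts. For the other 3 it passed limma's test of the days, though for none with the processed signals and for Dpp4 not with the series matrix. Sis, Anpep, Enpep and Mep1b, whose arrays did not turn sign throughout, differed between the days in the same test, with limma adjusted p of 0.027, 0.0293, 0.0343 and 0.0251. That test sets 1 RNA pair against 1, with the spread of the sorts, and these 4 calls were lost with the processed signals, with median centring and with the series matrix. The call of Sis was lost with no background subtraction as well.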

How the results depend on the processing

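Over 7 other treatments of the array values, 9 of 10 hydrolases had a day 3 mean above 0 and all 10 a day 5 mean below that of day 3. The number with a day 5 mean below 0 was 6 with processed signals, 10 with median centring and 7 with the others. The number of genes differing between the days moved from 2441 to 298 with processed signals, 291 with median centring, 863 with the series matrix and 4961 with no filter. With median centring, which leaves dye effects in each array, 1 hydrolase met the day 3 fold rule, 0 the day 5 rule, and the hydrolases' day 5 median was -0.63. The array with the deleted RNA in Cy3 alone gave a day 3 median of 0.64, and that with it in Cy5 a day 5 median of -0.13. The single arrays and the fold rules were added after seeing the data. The median over all 10 in the sorts, -0.096, was -0.27 with processed signals and -0.14 with median centring, and leaving out a sort gave -0.11 to -0.10. With the series matrix it was 0.26, but over Anpep, Mgam, Dpp4 and Mep1a only, since many spots there had no value. Sis (-1.32), Enpep (-1.40) and Lct (-0.69) did not enter that median, so its sign cannot be set against that of all 10. Fitted alone, the sorts had 75 genes past the threshold. With the RNA pair as a replicate block, which is also the slide, the sorts had 38 and the deletion 257, and no hydrolase's call changed under the block. Leaving out each RNA pair in turn gave 0 to 125 genes in the sorts and 0 to 6098 in the deletion, 1187 without day 3 and 6098 without day 5, where the sorts alone set the spread. The mean over both days was 0.031 for Sis with processed signals. Leaving out day 3 and then day 5, it was -0.40 and 0.31 for Sis, -0.66 and 0.20 for Alpi, -0.45 and 0.89 for Lct, -0.045 and 0.68 for Anpep, -0.32 and 1.11 for Dpp4, and -0.80 and 1.48 for Mep1a. Calls of single hydrolases are not given for these fits, which hold 1 deletion pair. Mgam in the sorts was -0.063 with median centring, -0.36 without sort 1 and 0.55 without sort 2. The causes were not tested. Dim signal limits the sorts, where 2 hydrolases could not be tested.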
